A study of Rattus norvegicus with 6 samples.

Results

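Toll-like receptors and the proteins that carry their signal were examined in spinal cord RNA from rats with neuropathic pain. The 10 genes were taken by symbol. No measured value entered that rule, but the set was chosen with earlier results of these data known. They comprise 5 receptors (*Tlr2*, *Tlr3*, *Tlr4*, *Tlr7* and *Tlr9*), the co-receptor *Cd14*, the adaptors *Myd88* and *Ticam1*, and the kinases *Irak1* and *Irak4*. A row was found under the symbol for 9 of the 10, among 22050 genes in the table, and *Ticam1* is not analysed here. All 9 passed the filter on low counts, which left 14426 genes to be tested. The libraries were made from spinal cord of young adult male Sprague–Dawley rats, an outbred stock, with 3 libraries from rats given spared nerve injury (SNI-NP) and 3 from sham-operated rats. In spared nerve injury, branches of the sciatic nerve are cut and the sural branch is kept, which leaves lasting pain hypersensitivity in the paw. Both groups had surgery, and the time between surgery and RNA extraction and the number of rats behind each library are not given in the sources used here, so the p-values measure only the spread between these libraries, which may be technical.

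Toll-like receptors recognise microbial molecules and molecules released by damaged cells. TLR2 and TLR4 act at the cell surface, where CD14 hands ligands to them, whereas TLR3, TLR7 and TLR9 sense nucleic acids inside endosomes. Every receptor in the set other than TLR3 signals through MYD88, which assembles a complex of IRAK4 and IRAK1 that leads to NF-κB, while TLR3 signals through TICAM1 and TLR4 can use either route. In spinal cord these receptors are known mainly from microglia, with TLR3 and others also described in astrocytes and sensory neurons.

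The libraries held between 16670760 and 18151156 estimated counts. Although labelled spinal cord, they also carried RNA of genes typical of dorsal root ganglion neurons. The summed level of 7 genes of dorsal root ganglion neurons was 496, 831 and 986 CPM (the usual library-scaled count) in sham and 187, 1350 and 955 CPM in SNI-NP, so SNI-NP replicate 1 stood apart as the lowest. Spinal cord markers were present too, and the sum of 7 astrocyte markers ran from 1320 to 3210 CPM in sham and from 1600 to 2020 CPM in SNI-NP. What part ganglion tissue has in the values below was not tested.

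Per length, the signalling kinase *Irak1* was the most abundant of the 9 genes and *Tlr9* the least. Mean FPKM over the 6 libraries, a level scaled by transcript length and library size as deposited, was 31.5 for *Irak1*, 9.07 for *Myd88*, 5.55 for *Cd14*, 4.52 for *Tlr2* and 3.76 for *Irak4*. The other receptors were lower, with 2.75 for *Tlr3*, 1.52 for *Tlr4*, 1.32 for *Tlr7* and 0.863 for *Tlr9*. The kinase thus stood above 82.3% of the genes tested by mean FPKM, *Tlr7* above 13.5% and *Tlr9* above 8.79%. In this order the ranges over libraries separated *Irak1* from *Myd88* and *Myd88* from *Cd14*, and every later pair of neighbours overlapped. *Tlr7* exceeded *Tlr9* in 3 of the 6 libraries, which were the 3 sham libraries, and lay below it in the 3 SNI-NP libraries.

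**Figure D1:**
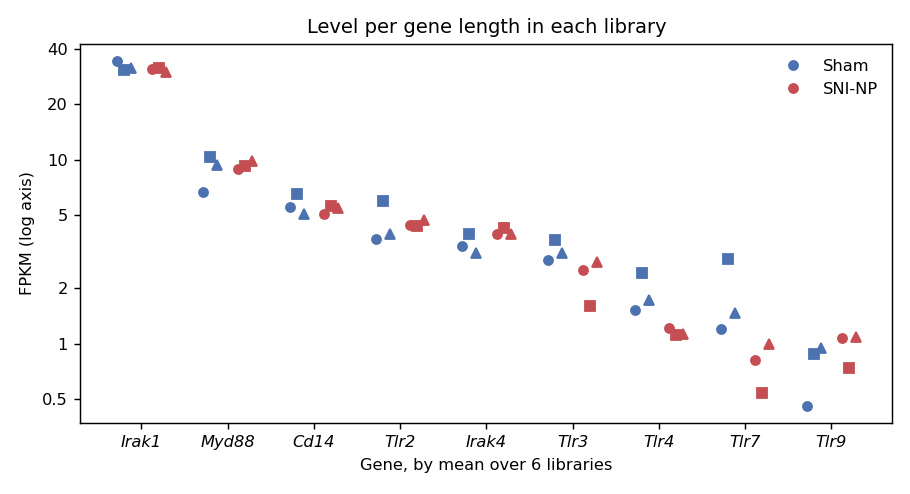
FPKM of the 9 genes in each library on a log axis, in order of the mean over 6 libraries, with sham and SNI-NP libraries in separate colours. *Irak1* (mean 31.5) and *Myd88* (mean 9.07) stand clear of the genes below them, and the receptors *Tlr4*, *Tlr7* and *Tlr9* overlap at the low end.

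The endosomal receptor for single-stranded RNA, *Tlr7* (ENSRNOG00000004249), differed most between the groups in size. Its level, scaled to the effective library size, was 5.16, 11.9 and 6.23 CPM in sham replicates 1 to 3 and 3.62, 2.28 and 4.29 CPM in SNI-NP replicates 1 to 3. The groups did not overlap, the highest SNI-NP library lying below the lowest sham library and sham replicate 2 standing well above the other sham libraries. These levels rest on 86, 212 and 107 counts in sham and 63, 41 and 74 in SNI-NP. The mean was 7.78 ± 3.65 CPM in sham and 3.40 ± 1.03 CPM in SNI-NP (SD, n = 3 each). The log2 fold change of SNI-NP over sham was −1.20 (SE 0.38, 95% interval −2.10 to −0.30), which is 0.437 times the sham level. In edgeR's quasi-likelihood test the unadjusted p = 0.016, and the Benjamini-Hochberg adjusted p = 0.436 over all genes did not pass. Sham replicate 2 set much of the size, since without it the log2 fold change was −0.74 (unadjusted p = 0.0545). In the other 5 fits that left out a library, the difference lay between −1.45 and −0.97 with an unadjusted p under 0.05.

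*Tlr8*, the neighbouring gene on chromosome X in the RefSeq annotation and the other receptor for single-stranded RNA, had 3.72, 6.03 and 5.36 CPM in sham and 3.68, 2.06 and 4.17 CPM in SNI-NP. It was lower in the mean but the groups overlapped (log2 fold change −0.61, SE 0.33, unadjusted p = 0.102 by edgeR).

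The surface receptor for lipopolysaccharide, *Tlr4* (ENSRNOG00000010522), was at 5.10, 7.77 and 5.76 CPM in sham and at 4.26, 3.67 and 3.83 CPM in SNI-NP. The groups did not overlap, and the SNI-NP libraries lay close together while sham replicate 2 was again the highest. The counts behind these levels were 85, 138 and 99 in sham and 74, 66 and 66 in SNI-NP. The mean was 6.21 ± 1.39 CPM in sham and 3.92 ± 0.306 CPM in SNI-NP (SD, n = 3 each). The log2 fold change was −0.67 (SE 0.23, 95% interval −1.20 to −0.13), or 0.630 times the sham level, with an unadjusted p = 0.0208 and an adjusted p = 0.436 by edgeR. Leaving out sham replicate 2 gave −0.47 (unadjusted p = 0.0688), and the unadjusted p also rose above 0.05 when either SNI-NP replicate 2 (−0.62) or SNI-NP replicate 3 (−0.69) was dropped.

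Among the 9 genes, *Tlr4* and *Tlr7* were lower by at least 1.2-fold with an unadjusted p under 0.05, and none was higher by that rule. Of all genes tested, 5.90% were lower and 4.54% higher by the same rule. At an adjusted p under 0.05, edgeR called 0 of the 9 genes and 0% of all genes, though 1565 genes had an unadjusted p under 0.05. DESeq2 also called 0 of the 9 genes, against 1.48% of all genes, with an adjusted p = 0.14 for *Tlr7* and 0.28 for *Tlr4*. The groups did not overlap with SNI-NP below for the same pair of receptors, against 8.15% of all genes, and with SNI-NP above for *Irak4*, against 10.4% of all genes. In bulk tissue, fewer cells of a type and less RNA per cell cannot be told apart.

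**Figure D2:**
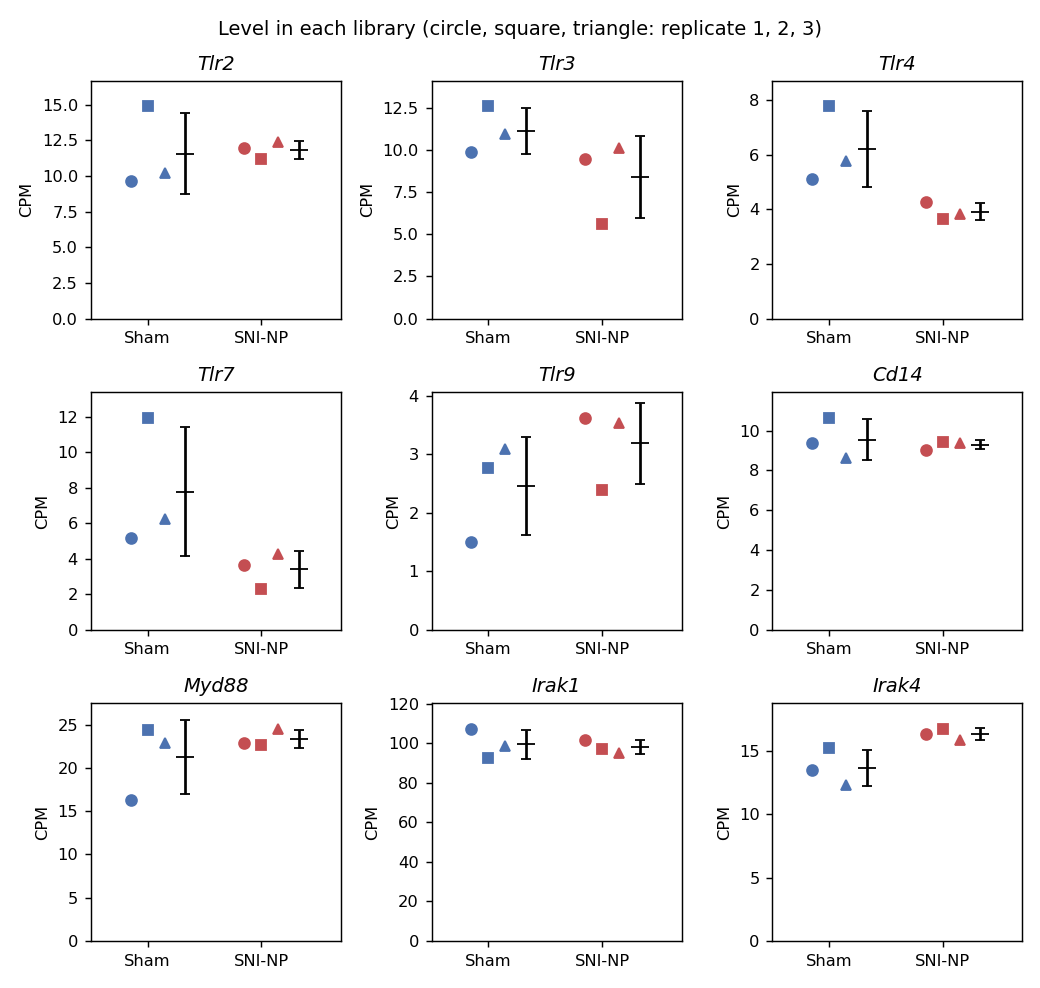
CPM of each of the 9 genes in the 3 sham and 3 SNI-NP libraries, with a marker shape for each replicate number and bars for the mean ± SD of each group. SNI-NP points lie wholly below sham for *Tlr7* and *Tlr4* and wholly above for *Irak4*. The sham replicate 2 square is the highest of all 6 for 5 of the 9 genes, a share not computed over all genes.

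The other nucleic acid receptors did not separate the groups. *Tlr3* (ENSRNOG00000021726), which senses double-stranded RNA, had 9.85, 12.6 and 10.9 CPM in sham and 9.43, 5.61 and 10.1 CPM in SNI-NP. SNI-NP replicate 2 was the lowest, SNI-NP replicate 1 also lay below the sham libraries, and SNI-NP replicate 3 lay inside the sham range (log2 fold change −0.41, SE 0.25, 95% interval −0.99 to 0.17, unadjusted p = 0.139 by edgeR). *Tlr9* (ENSRNOG00000048161), the receptor for unmethylated CpG DNA, had 1.5, 2.76 and 3.09 CPM in sham and 3.62, 2.39 and 3.54 CPM in SNI-NP, from between 25 and 63 counts a library. Its mean was higher in SNI-NP, the opposite side from *Tlr7*, but the groups overlapped and the interval spanned no difference (log2 fold change 0.38, SE 0.34, 95% interval −0.43 to 1.18).

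*Tlr2* (ENSRNOG00000009822), the surface receptor for bacterial lipopeptides, had 9.67, 14.9 and 10.2 CPM in sham and 11.96, 11.2 and 12.4 CPM in SNI-NP. The group means were 11.6 ± 2.87 and 11.8 ± 0.604 CPM, closer than the sham spread, and the log2 fold change was 0.03 (SE 0.20, 95% interval −0.43 to 0.49). *Cd14* (ENSRNOG00000017819), the co-receptor that binds lipopolysaccharide for TLR4, had 9.37, 10.7 and 8.62 CPM in sham and 9.03, 9.44 and 9.39 CPM in SNI-NP. All SNI-NP libraries lay inside the sham range (log2 fold change −0.04, SE 0.16, 95% interval −0.41 to 0.33).

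The adaptor *Myd88* (ENSRNOG00000013634) had 16.3, 24.4 and 22.9 CPM in sham and 22.9, 22.6 and 24.5 CPM in SNI-NP. Sham replicate 1 was the low library and the rest were within a narrow band (log2 fold change 0.14, SE 0.17, 95% interval −0.26 to 0.53). *Irak4* (ENSRNOG00000005965), the kinase recruited first to MYD88, had 13.5, 15.2 and 12.3 CPM in sham and 16.4, 16.8 and 15.9 CPM in SNI-NP. Every SNI-NP library lay above every sham library, with means of 16.4 ± 0.446 and 13.7 ± 1.44 CPM (SD, n = 3 each). The log2 fold change was 0.26 (SE 0.13, 95% interval −0.06 to 0.57) and did not pass (unadjusted p = 0.0967, adjusted p = 0.509 by edgeR), though without sham replicate 2 it was 0.34 with an unadjusted p = 0.0498. *Irak1* (ENSRNOG00000060869), which IRAK4 phosphorylates, had 107.3, 92.5 and 98.4 CPM in sham and 101.7, 97.1 and 94.8 CPM in SNI-NP. It was the steadiest of the 9 genes over the libraries, its highest library being 1.14 times its lowest, against 5.37 times for *Tlr7* (log2 fold change −0.02, SE 0.10, 95% interval −0.25 to 0.21).

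**Figure D3:**
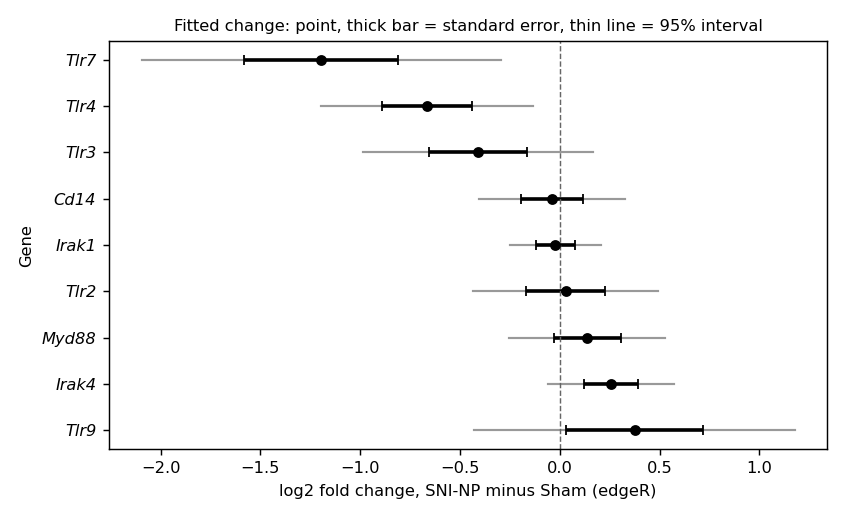
Log2 fold change of SNI-NP over sham for the 9 genes from edgeR, with 95% intervals. The intervals of *Tlr7* (−2.10 to −0.30) and *Tlr4* (−1.20 to −0.13) lie below 0 and the other 7 include it.

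The median log2 fold change was −0.41 over the 5 receptors, from −1.20 to 0.38, and 0.058 over *Cd14*, *Myd88*, *Irak1* and *Irak4*, beside 0.0057 over all genes tested. Within the sham group, replicate 2 was the highest library for 7 of the 9 genes, and the share over all genes was not computed. The same library had the highest summed level of 12 microglia and macrophage markers, at 604 CPM, beside 420 and 514 CPM in the other sham libraries and 498, 496 and 540 CPM in SNI-NP. Of those 12 markers none passed the 1.2-fold rule in either direction, their median log2 fold change was 0.0054 (−0.42 to 0.27), none was at 0, and the sums overlapped. By log2 fold change, 6 were above 0 and 6 below. *Cx3cr1* lay lower in every SNI-NP library than in any sham library (log2 fold change −0.22, unadjusted p = 0.107 by edgeR), as did 8.15% of all genes. With the mean level of these markers as a covariate, the log2 fold change was −1.22 for *Tlr7* (unadjusted p = 0.00201, adjusted p = 0.41 by edgeR). For *Tlr4* it was −0.68 (unadjusted p = 0.0134, adjusted p = 0.46 by edgeR). The marker level differed little between the groups, so the covariate could shift these values little. What part such cells have in the differences was not tested.

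**Figure D4:**
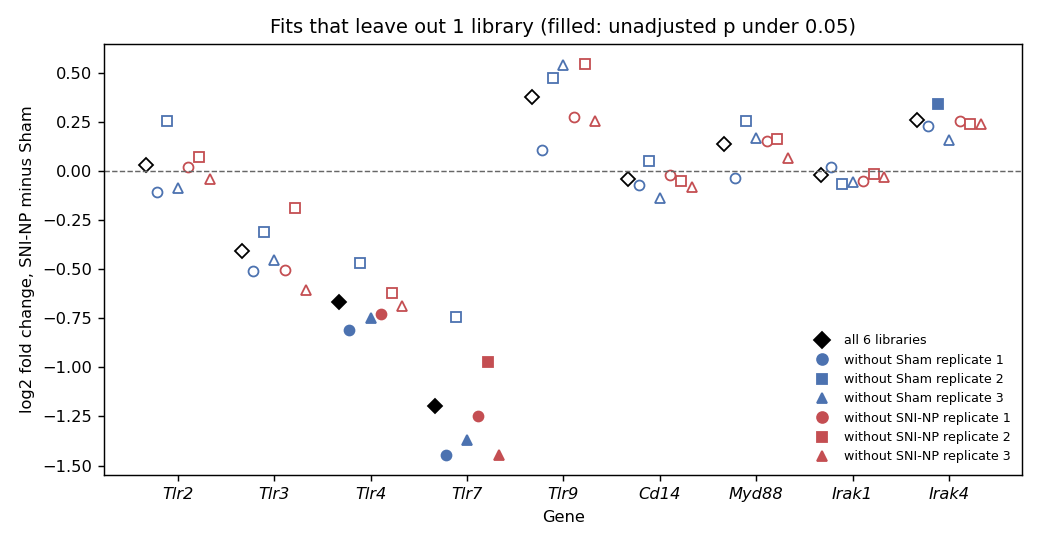
Log2 fold change of each of the 9 genes with all libraries and with each of the 6 libraries left out in turn; filled markers have an unadjusted p under 0.05. *Tlr7* stays between −1.45 and −0.74 and *Tlr4* between −0.81 and −0.47, both nearest 0 without sham replicate 2.

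The promoters of the 3 genes whose groups did not overlap are shown because they carry the same short element, the core bound by PU.1, the transcription factor that defines myeloid cells. Each is the 250 bases upstream of the gene's start in RefSeq's GRCr8 assembly, a later build than the Rat6 genome used for the reads, written 5′ to 3′ on the gene's own strand. Capitals mark GAGGAA or its reverse complement TTCCTC. *Tlr7* lies at chrX:30644176-30644425, *Tlr4* at chr5:85160997-85161246 and *Irak4* at chr7:127561527-127561776, all on the plus strand.
Tlr7: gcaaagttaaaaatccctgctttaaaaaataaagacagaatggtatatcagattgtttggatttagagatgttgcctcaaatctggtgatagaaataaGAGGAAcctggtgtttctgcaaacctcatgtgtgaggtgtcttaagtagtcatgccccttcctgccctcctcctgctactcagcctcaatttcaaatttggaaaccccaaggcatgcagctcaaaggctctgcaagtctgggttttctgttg
Tlr4: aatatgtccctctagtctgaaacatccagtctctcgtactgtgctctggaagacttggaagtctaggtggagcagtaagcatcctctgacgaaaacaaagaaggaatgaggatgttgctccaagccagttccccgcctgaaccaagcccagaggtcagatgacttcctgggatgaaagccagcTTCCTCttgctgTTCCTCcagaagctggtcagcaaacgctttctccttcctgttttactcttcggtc
Irak4: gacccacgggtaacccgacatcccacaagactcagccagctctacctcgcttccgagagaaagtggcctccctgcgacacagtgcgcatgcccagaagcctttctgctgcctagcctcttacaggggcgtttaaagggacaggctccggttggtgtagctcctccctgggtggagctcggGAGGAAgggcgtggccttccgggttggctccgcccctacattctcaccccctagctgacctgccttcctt
*Tlr4* holds the element at 2 places, starting 67 and 55 bases before the gene's start, while *Tlr7* and *Irak4* hold it at 152 and 70 bases before theirs.

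A promoter was listed for 9 of the 10 genes, and 7 motifs were searched on both strands of those windows and of 33469 rat promoters of the same length. GAGGAA occurred in 6 of the 9 (*Tlr3*, *Tlr4*, *Tlr7*, *Tlr9*, *Cd14* and *Irak4*) and in 23.3% of all promoters. The NF-κB site was found in *Tlr2* alone (6.33% of all promoters), the AP-1 site TGANTCA in *Tlr9* and *Myd88* (6.34%), the interferon response core GAAANNGAA in *Myd88* (8.12%) and CCAAT in *Cd14* (34%). TATAAA (12.9%) and the E-box CACGTG (5.59%) were in none of the 9. These matches describe letters in the windows and were not tested against the expression values, and *Tlr3*, *Tlr9* and *Cd14*, whose groups overlapped, hold GAGGAA as well.

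Beyond the 9 genes, 73 other genes of the pathway were listed by role, of which 61 were tested. By the rule of 1.2-fold and an unadjusted p under 0.05, 1 was higher and 2 were lower, beside 4.54% of all genes higher and 5.90% lower. None had an adjusted p under 0.05 by edgeR or DESeq2. The median log2 fold change was 0.051, with 35 values above 0 and 26 below. *Rela*, the NF-κB subunit that carries the transactivation domain, had 78.9, 78.9 and 77.4 CPM in sham and 100.8, 88.6 and 101.2 CPM in SNI-NP, all higher (log2 fold change 0.30, SE 0.10, unadjusted p = 0.0142, adjusted p = 0.436 by edgeR). Its unadjusted p rose above 0.05 when replicate 3 of either sham (0.27) or SNI-NP (0.24) was dropped. *Ptgs2*, the inducible cyclooxygenase of prostaglandin synthesis and an NF-κB target, had 4.32, 2.93 and 3.96 CPM in sham and 2.65, 0.9996 and 1.04 CPM in SNI-NP (log2 fold change −1.25, SE 0.43, unadjusted p = 0.0211, adjusted p = 0.436 by edgeR). Its groups did not overlap, with SNI-NP below, and its unadjusted p was above 0.05 in 3 of the 6 fits that left out a library (without sham replicate 1, −1.16, or SNI-NP replicates 2, −1.01, or 3, −1.07), while dropping SNI-NP replicate 1 gave −1.86 (unadjusted p = 0.000853). *Hspd1*, a mitochondrial chaperone described as a ligand of TLR4 when released, was lower in every SNI-NP library and kept its unadjusted p under 0.05 in 6 of those 6 fits (log2 fold change −0.37, SE 0.11).

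**Figure D5:**
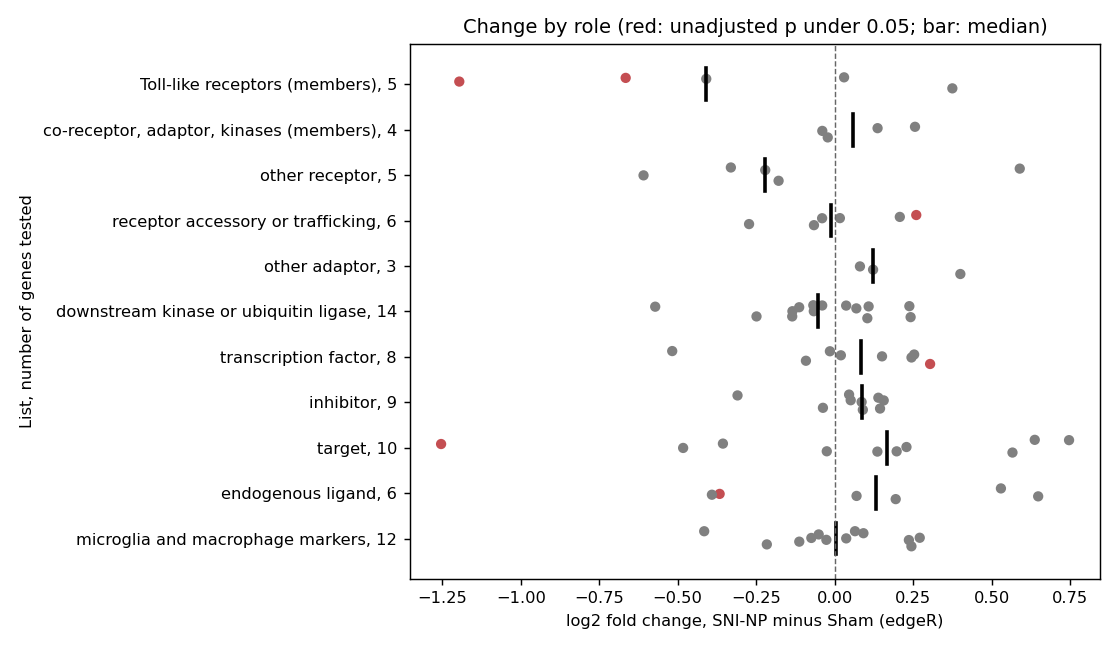
Log2 fold change of SNI-NP over sham for each gene tested, grouped by role with the number of genes, with bars at the medians and red points where the unadjusted p was under 0.05. *Tlr7* and *Tlr4* are the red receptor points, and the red points in the other roles are *Cnpy3*, *Rela*, *Ptgs2* and *Hspd1*.

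By role, 1 of 6 accessory and trafficking genes had an unadjusted p under 0.05, and it was *Cnpy3*, a chaperone needed for folding of several Toll-like receptors (log2 fold change 0.26, SE 0.10, unadjusted p = 0.0334, adjusted p = 0.442 by edgeR). It lay just under 1.2-fold, and its unadjusted p stayed under 0.05 in 1 of the 6 fits that left out a library, with values from 0.21 to 0.28. In the same role 3 genes were above 0 and 3 below. Among the latter, *Hsp90b1* lay lower in every SNI-NP library than in any sham library (log2 fold change −0.27, SE 0.13, unadjusted p = 0.0809 by edgeR). None of 5 other receptors, 3 other adaptors, 14 downstream kinases and ubiquitin ligases or 9 inhibitors passed the rule. The most abundant gene per length in each role, by mean FPKM, was *Tlr6* among other receptors (1.69), *Hsp90b1* among accessory genes (127.8), *Sarm1* among adaptors (9.14), *Tab2* among kinases and ligases (28.1), *Irf7* among transcription factors (64.1), *Tollip* among inhibitors (35.3), *Cxcl10* among targets (22.5) and *Bgn* among endogenous ligands (164.2). The rank of *Irf7* rests on libraries between 11.4 and 122.2 FPKM, and in replicate 1 of both groups it lay below *Rela*.

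Of the cytokine targets, some were too low to test. *Tnf* and *Ifnb1* had no count in any library, which allows up to between 0.165 and 0.18 CPM from counting error alone. *Il6* had 2, 3 and 2 counts in sham and 1, 6 and 3 in SNI-NP and was not tested. *Il1b*, which was tested, had 2.40, 1.86 and 1.57 CPM in sham and 2.13, 3.50 and 3.01 CPM in SNI-NP, and its groups overlapped (log2 fold change 0.57, unadjusted p = 0.108 by edgeR).

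Markers of other cells were compared in the same way, beside 4.54% of all genes higher and 5.90% lower by the 1.2-fold rule. The median log2 fold change was −0.44 over 7 astrocyte markers, −0.44 over 7 oligodendrocyte markers and −0.33 over 7 neuron markers, of which 1, 0 and 2 were lower by the 1.2-fold rule. The summed level of 5 B cell markers, the only marker list described here whose sums did not overlap, was 4.62, 5.86 and 7.68 CPM in sham and 14.8, 12.7 and 11.3 CPM in SNI-NP, and 3 of the 5 were higher by the 1.2-fold rule. B cells express *Tlr7* and *Tlr9*, whose log2 fold changes were −1.20 and 0.38 in the same libraries. The sum of 8 neutrophil markers ran from 43.3 to 139 CPM in sham and from 105 to 202 CPM in SNI-NP, with overlap. All 8 had a log2 fold change above 0 (median 0.85), and 1 of them was higher by the 1.2-fold rule. The sum of 3 red cell genes ran from 317 to 684 CPM in sham and from 675 to 1520 CPM in SNI-NP, with overlap, though 3 of those 3 were higher by the 1.2-fold rule. The sums of T cell, endothelial and meningeal markers overlapped as well. All 4 T cell markers tested had a log2 fold change below 0 (median −0.52), and none passed the 1.2-fold rule. Their sum, from 42.1 to 76.4 CPM in sham, was mostly *Cd4*, which had 39.6, 71.9 and 38.2 CPM in those libraries. The part of any of these cells in the values of the 9 genes was not tested.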

How the data were processed

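RNA was measured in 6 spinal cord libraries, 3 sham and 3 SNI-NP, grouped by their labels. The authors extracted RNA with TRIzol and built NEBNext Ultra libraries. The submitters' processing notes name FastQC, STAR and HTSeq, without versions. The authors deposited estimated counts, which were not whole for 2018 of 22050 genes, and FPKM values for each gene and library, and the way fractional counts arose is not given in the sources used here. Estimated counts were rounded, filtered with filterByExpr, scaled by TMM and tested with edgeR 4.0.16 in R 4.3.3 (quasi-likelihood, no covariates, Benjamini-Hochberg over 14426 genes). Intervals are 95% intervals of the group difference and rest on the spread between libraries. Each SE was derived from the log2 fold change and the F statistic of the quasi-likelihood test, and the intervals from that SE. Other settings were DESeq2 1.42.0, other scalings and filters, a replicate term, a marker covariate, the ratio of mean FPKM, and leaving out each library. The code was tested on simulated data, where the share of false calls at an adjusted p under 0.05 was above the nominal level, so the p-values printed may be too small. Named genes were all 10 members, listed pathway genes past 1.2-fold with an unadjusted p under 0.05, the most abundant per role and those without a count. *Tlr8*, *Cnpy3*, *Il6*, *Il1b*, *S100a8*, *Cx3cr1* and *Cd4* were named after their values were seen. The members, lists and motifs were chosen with earlier results of these data known. Promoters came from RefSeq (GRCr8). A result that needs a withheld item is not reported here.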

Additional observations from a re-analysis of the deposited data

How the results depend on the processing

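*Tlr7* and *Tlr4* kept their lower level in SNI-NP under all 14 alternatives, and no member reached an adjusted p under 0.05 in any. Of 126 member values under alternatives, 114 kept their direction and side of an unadjusted p of 0.05, 4 lost it (*Tlr4* and *Tlr7*), 1 gained it (*Irak4*), and 7 reversed, all of genes near no difference. *Tlr2* was −0.016 (log2) by the ratio of mean FPKM. That setting took the p-values of all members from the edgeR fit, so only direction could change in it. Leaving out 1 library gave −0.11 to 0.25 for *Tlr2*, −0.039 to 0.25 for *Myd88*, −0.069 to 0.020 for *Irak1* and −0.14 to 0.049 for *Cd14*. It left 1 to 2 members past 1.2-fold with an unadjusted p under 0.05, and 2 to 7 pathway genes against 3 with all libraries (7 without sham replicate 2, 6 without SNI-NP replicate 1). Without sham replicate 2 the 1 member was *Irak4*, higher in SNI-NP, and neither *Tlr4* nor *Tlr7* passed. By the same rule 6.07% of all genes were higher and 8.26% lower without sham replicate 2. Without SNI-NP replicate 1 these shares were 3.55% and 9.52%, against 4.54% and 5.90% with all libraries. The covariate of microglia markers gave 5 such pathway genes, beside 4.56% of all genes higher and 5.57% lower. Over all genes, edgeR called 0 at an adjusted p under 0.05, but 222 without SNI-NP replicate 1 and 2 without sham replicate 2, and DESeq2 called 210. The cause of these shifts was not tested.

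The shared replicate numbers carry no stated pairing. The correlation of same-numbered deviations was 0.214, −0.143 and 0.0538, over 0.1 for 1 of 3 pairs, and not every library correlated best with its own number. With the replicate block, 2 members and 4 pathway genes passed, beside 3.11% of all genes higher and 6.04% lower by the same rule. In that fit the log2 fold change was −1.13 for *Tlr7* and −0.65 for *Tlr4*. Counts of 25 to 212 a library for *Tlr4*, *Tlr7* and *Tlr9*, and 3 libraries a group, limit the precision of these differences.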

Other observations

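*Irf7*, the transcription factor downstream of TLR7 and TLR9, had 22.6, 116.7 and 240.0 CPM in sham replicates 1 to 3 and 30.5, 159.8 and 185.0 CPM in SNI-NP replicates 1 to 3. *Cxcl10*, an interferon-induced chemokine, had 9.19, 23.4 and 27.3 CPM in sham and 18.5, 39.5 and 35.2 CPM in SNI-NP (log2 fold change 0.64, SE 0.42, unadjusted p = 0.174 by edgeR), and it passed 1.2-fold with an unadjusted p under 0.05 in the fit with the replicate block, where 4 pathway genes did. For both genes replicate 1 was the lowest library of each group. *S100a8*, a neutrophil protein and TLR4 ligand, had 5.94, 8.17 and 20.1 CPM in sham and 25.1, 11.1 and 13.3 CPM in SNI-NP.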
